A study of Mus musculus with 7 samples.

Results

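Of the 9052 CTCF sites that the authors predicted to anchor intra-TAD loops in mouse liver, 1741 lay on the autosomes, overlapped a Rad21 peak by at least 1 bp and carried no Top2b flag. These sites, called members below, were 3.32% of the 52436 classed CTCF sites and 20% (95% Wilson interval 19.2 to 20.9%) of the 8691 autosomal intra-TAD anchors with a Rad21 peak. The other 6950 of those anchors carried the Top2b flag and served as the main comparison (Top2b anchors). A further comparison used 1249 anchors of whole TADs, likewise autosomal, with Rad21 and without Top2b (TAD anchors without Top2b).

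The data were ChIP-seq peaks from livers of male CD-1 mice (Crl:CD1(ICR)) at 8 weeks of age, with 4 libraries for CTCF and 3 for Rad21. The libraries of each factor had been pooled before peaks were called, so the lists hold 1 value per site and no value per liver. No spread between livers could be given, and every interval and p-value here is over sites, which are not replicates. The flags for Top2b, Stag1 and Stag2 came from public liver ChIP-seq, where a 0 records that no listed peak overlapped the site, not that the protein was absent.

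CTCF is a zinc finger protein that binds a long, directional DNA motif. Cohesin, a ring complex that contains Rad21 and either Stag1 or Stag2, extrudes chromatin loops and is held back where it meets CTCF in a given orientation, so that loop anchors tend to carry motifs that face each other. Top2b, a type II topoisomerase, cuts and reseals both strands of DNA to release twisting, and it is often found beside CTCF and cohesin. Intra-TAD loops are smaller, CTCF- and cohesin-bound loops inside topologically associating domains (TADs).

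The CTCF motif at these sites was examined in the sequence first. The authors had required a stranded CTCF motif at every anchor, so the match and strand shares below cannot test the anchor label. A CTCF matrix of 19 positions, learnt from strong TAD anchors (consensus NNNCCACNAGGGGGCGCNN, where N marks a position at which no base reached 50%), had a match within 100 bases of the summit at 92.2% of members. The best-scoring position, whether or not it reached the threshold for a match, lay on the strand of the deposited motif at 98.1%. By comparison, 2.02% of flanking windows at all classed sites held such a match. Examples of both kinds of member described below are shown next. They were read from the mm9 assembly (NCBIM37) in the direction of the motif, with the 19 matched bases in capitals.

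Members with the strongest CTCF peaks were often GC-rich and close to a transcription start site (TSS). The site in Gdf15, a stress-induced cytokine, lies at chr8:73153786-73153814 on the minus strand. The site 16 bp from the start of Gnptab, which encodes a subunit of the enzyme that marks lysosomal proteins, lies at chr10:87841858-87841886 on the plus strand. The site 134 bp from the start of Snx18, a sorting nexin, lies at chr13:114408901-114408929 on the minus strand.
Gdf15: ggtagCCGCCGGCAGGGGGCGCCGaagcg
Gnptab: ccctcCGCCCTCTAGGTGGCGCTGgcgac
Snx18: cgtagCCGCCACAAGGTGGCAGCGgcggc

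A larger set of members shared 1 version of the motif, with AGAAGAGGGC at positions 6 to 15 of the match, and also resembled each other in the bases around it. Examples are the members nearest to Npl (chr1:155398103-155398131, plus strand), an enzyme of sialic acid breakdown, to Setd5 (chr6:113053959-113053987, minus strand), to Mxi1 (chr19:53397110-53397138, minus strand), a repressor in the Myc network, to the alcohol dehydrogenase gene Adh6a (chr3:137974171-137974199, minus strand) and to the xenobiotic-inducible Cyp2b10 (chr7:26688363-26688391, minus strand). The first 3 were picked for their high likeness to the common sequence around the word, 87.9% of the positions compared, where the median of members with the word was 57.6%.
Npl: catagAGGCCAGAAGAGGGCACTAggtac
Setd5: cacagGGGCCAGAAGAGGGCATTGgatcc
Mxi1: cagacACGCCAGAAGAGGGCGCCAgatct
Adh6a: cttggAGGCCAGAAGAGGGCACCAgatcc
Cyp2b10: cacagAGGACAGAAGAGGGCATCGaatac

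Members were weaker CTCF sites than Top2b anchors, and weaker still in Rad21. The CTCF score, which is 10 times the −log10 of the peak's q-value, had a median of 1902 at members (quartiles 1050 and 3011, range 130 to 47603) and of 3358.5 at Top2b anchors. A randomly drawn member exceeded a randomly drawn Top2b anchor with a probability of 0.258 (95% interval 0.245 to 0.271), where 0.5 is no difference. The difference passed the exact two-sided Kolmogorov-Smirnov test over sites (p = 1.12e-166, 8.38e-166 after Benjamini-Hochberg adjustment over 15 tests) and had the same sign on all 19 autosomes. Every p-value below is from this test unless strata are named. The median number of CTCF fragments at the summit, recovered from the deposited fold and p-value, was 234 at members and 373 at Top2b anchors. The local background was also lower at members, with medians of 13.2 and 17.7 fragments. By fold over that background the difference was smaller, with a probability of 0.318 (0.303 to 0.332).

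The Rad21 score of the strongest overlapping peak had a median of 400 at members (quartiles 191 and 711) and of 1198 at Top2b anchors, with 75 against 163 fragments at the summit. The probability that a member was higher was 0.181 (0.171 to 0.192, exact p = 4.66e-293, adjusted p = 6.99e-292), and members were lower on 19 of 19 autosomes. By Rad21 fold it was 0.212 (0.200 to 0.223), with a median local background of 8.06 fragments at members and 11.6 at Top2b anchors. Within 10 strata of CTCF score, so among anchors of like CTCF strength, the difference in Rad21 score was smaller. There the probability was 0.258 (0.244 to 0.271). The probability for CTCF score was 0.429 (0.412 to 0.447) within strata of Rad21 score. Members also held fewer Rad21 fragments per CTCF fragment, with a median ratio of 0.338 (quartiles 0.232 and 0.481) against 0.460 (probability 0.354, 0.340 to 0.368, exact p = 5.50e-61, adjusted p = 1.65e-60). The direction was kept within strata of CTCF score (0.279, 0.265 to 0.293) and within joint strata of both scores (0.474, 0.456 to 0.491). Within strata of Rad21 score alone the direction turned, with a probability of 0.564 (0.547 to 0.582).

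**Figure D1:**
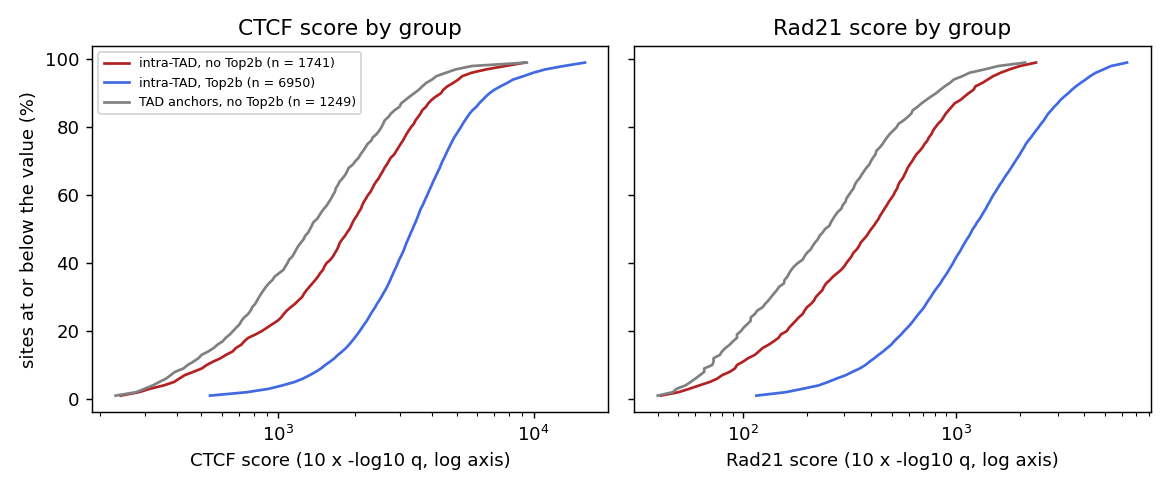
Cumulative share of sites (vertical axis, %) at or below a given CTCF score (left) or Rad21 score (right), both 10 × −log10 q on a log axis, for members, Top2b anchors and TAD anchors without Top2b; curves run from the 1st to the 99th percentile. The members' curve lies left of that of Top2b anchors throughout, with medians of 1902 against 3358.5 for CTCF and 400 against 1198 for Rad21, and right of that of TAD anchors without Top2b for most of its course.

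Sorting all 8691 anchors by strength shows how steeply the share without Top2b fell. In the lowest decile of Rad21 score (20 to 235) 64.2% (60.9 to 67.3%) of 860 anchors lacked Top2b. The share was 31.9% in the third decile, 17.6% in the fifth and 5.18% in the eighth. In the highest decile (3046 to 13675) 8 of 870 anchors lacked it, or 0.920% (0.467 to 1.80%). By CTCF score the share fell from 57.7% (54.3 to 60.9%) in the lowest decile to 6.32% (4.89 to 8.14%) in the highest, where 55 members remained. How far the public Top2b peak calls themselves followed signal strength was not tested.

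GC content gave a different shape. In 200 bp around the summit members had a median of 47.0% G and C against 51.5% at Top2b anchors (probability 0.355, 0.340 to 0.371, exact p = 5.85e-76, adjusted p = 2.19e-75), lower on 19 of 19 autosomes. The share without Top2b was 45.1% (41.7 to 48.6%) in the lowest decile (30.0 to 41.5% GC) and 11.3% (9.33 to 13.6%) in the ninth. In the highest decile, from 61 to 84.5% GC, it was 17.1% (14.8 to 19.7%), so that the interval lay above that of the ninth. The lower GC content of members persisted within joint strata of CTCF and Rad21 score, with a probability of 0.426 (0.408 to 0.444). That is an average over strata, and the order was the opposite among the strongest CTCF sites, where members had a median of 70.5% in the highest CTCF decile and Top2b anchors 60%.

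**Figure D2:**
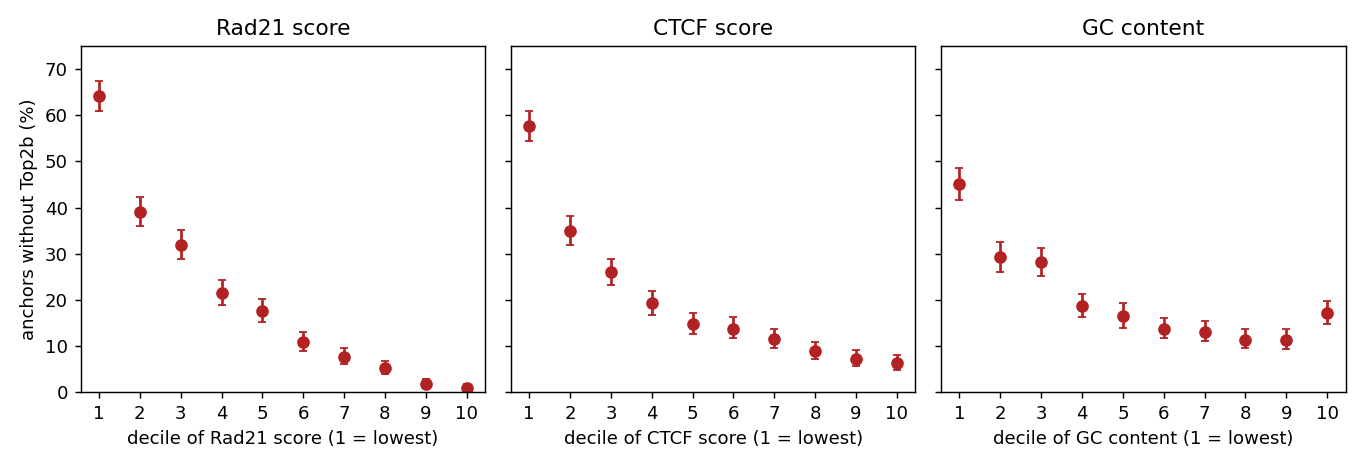
Percentage of autosomal intra-TAD anchors with Rad21 that lack the Top2b flag (vertical axis) in each decile of Rad21 score, CTCF score and GC content (horizontal axes, 1 = lowest), with 95% Wilson intervals over sites as bars. The share falls from 64.2% to 0.920% with Rad21 score and from 57.7% to 6.32% with CTCF score, and with GC content it falls to 11.3% in the ninth decile and is 17.1% in the tenth.

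The strongest and weakest members gave the range of these values. The Gdf15 site, in a coding exon 2182 bp from the nearest start, had a CTCF score of 47603 from 4307 fragments but a Rad21 score of 1631 from 268 fragments, a ratio of 0.0622. Of the 6 members with the highest CTCF score, 4 lay within 258 bp of a TSS, those of Mapk1ip1l, Gnptab, Snx18 and Elovl2, an elongase of polyunsaturated fatty acids. The remaining one, 17737 bp from Parp16, had a CTCF score of 16017. Of these 6 only the Snx18 site was also among the 6 highest for Rad21, with a CTCF score of 14496, a Rad21 score of 10158 and a ratio of 0.806.

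The other high Rad21 scores were 5323 near Scd1, the hepatic stearoyl-CoA desaturase, 4984 near Serpina3n, an acute phase protease inhibitor, 4787 near the acyl-CoA synthetase gene Acsm3, 3443 near Nacc2 and 3359 near the transcription factor gene Nfix. All 5 lay between 10714 and 19322 bp from the nearest start, outside annotated protein-coding genes. At the Serpina3n site the Rad21 summit was displaced by 686 bp from that of CTCF, so its ratio of 1.46 compares different positions.

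The highest ratio belonged to the Adh6a site shown above, with 325 Rad21 and 165 CTCF fragments (ratio 1.97). At the other end, an intronic site of Ntm, which encodes a neural adhesion protein, held 20 Rad21 fragments beside 418 of CTCF (0.0478) and neither Stag flag. Sites in introns of Uchl5 (0.0544) and of Tnni1 (0.0575) followed and carried both flags. The weakest member by CTCF score, 51969 bp from Ppm1a, had a score of 130 from 41 fragments and a Rad21 score of 33 from 18, yet a motif score of 20.1, above the members' median of 17.5.

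Because the rule asked for 1 shared base, its edge was examined. The overlap was 392 bp in the median and at least 267 bp in 9 of 10 members. The smallest was 23 bp, at a coding exon of the immediate-early gene Egr1, where the Rad21 summit lay 315 bp away. An overlap of 146 bp was found in a UTR exon of Tomm40. Otherwise equal sites without a Rad21 peak numbered 261, of which the closest lay 23 bp (CTCF score 493), 72 bp (846) and 173 bp (550) from a peak, and their median CTCF score was 582.

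Cohesin subunit flags were less frequent at members. Stag1 was flagged at 89.4% (87.8 to 90.7%) of members and 98.9% of Top2b anchors, a difference of −9.50 percentage points (Newcombe interval −11.1 to −8.11). Stag2 was flagged at 96.3% (95.3 to 97.1%) and 99.8%, a difference of −3.56 points (−4.56 to −2.76). Within joint strata of CTCF and Rad21 score the differences were −4.67 (−6.11 to −3.23) and −2.15 points (−2.97 to −1.34). Within strata of Rad21 score alone they were −3.25 (−4.59 to −1.90) and −1.77 points (−2.55 to −0.995). The joint strata did not fully match strength, since the ratio of Rad21 to CTCF fragments still differed within them (probability 0.474, 0.456 to 0.491). Among anchors with a fold of at least 10 for both factors the Stag1 difference was −1.38 points (−2.77 to −0.649), and the Stag2 difference no longer passed (−0.142 points, −0.985 to 0.0417).

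Most members (1542, or 88.6%) had both flags and a median Rad21 score of 452. The 134 with Stag2 alone had a median Rad21 score of 122, the 14 with Stag1 alone 116.5, and the 51 with neither 87. Read the other way, Top2b was lacking at 51 of the 60 anchors with neither Stag flag (85.0%, 73.9 to 91.9%), at 66.0% (59.3 to 72.2%) of the 203 with Stag2 alone and at 18.3% (17.5 to 19.2%) of the 8411 with both. All flags come from peaks called on other data, and how far each set of calls followed signal strength was not tested.

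Motif scores differed little. The deposited motif score had a median of 17.5 at members and 18.1 at Top2b anchors (probability 0.467, 0.452 to 0.482, exact p = 7.32e-05, adjusted p = 9.15e-05). Within strata of CTCF score the order turned, with a probability of 0.536 (0.520 to 0.552) that the member had the higher motif score, and within joint strata it was 0.541 (0.524 to 0.558). The authors had selected anchors on the product of peak and motif score, and the part of that selection in this reversal was not tested. A CpG, the dinucleotide that can be methylated, occurred in the 19 matched bases at 41.0% of members and 48.8% of Top2b anchors (difference −7.87 points, −10.4 to −5.26), but the difference was 0.0325 points (−2.71 to 2.77) within strata of CTCF score.

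**Figure D3:**
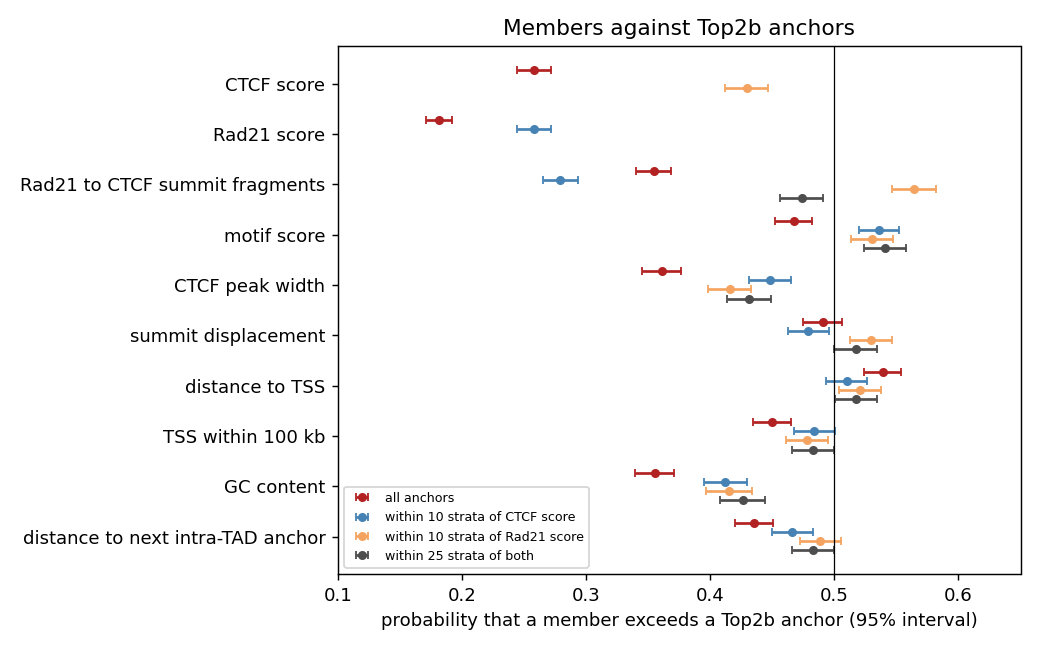
Probability that a member exceeds a Top2b anchor (horizontal axis, bars are 95% intervals, vertical line at 0.5) for 10 measures, over all anchors and within strata of CTCF score, of Rad21 score and of both. Rad21 score lies lowest at 0.181, GC content stays below 0.5 in every stratification shown, and motif score crosses from 0.467 to 0.536 within strata of CTCF score.

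The base composition of the match differed at single positions. At position 7 members had G at 55% and C at 41.9%, while Top2b anchors had G at 38.6% and C at 57.1%. At position 8 A was found at 38.0% of members and 18.3% of Top2b anchors. These shifts came together in 1 word. AGAAGAGGGC at positions 6 to 15 was the most common word among members, at 303 of them or 17.4% (15.7 to 19.3%), while the next, AGCAGGGGGC, was at 68 (3.91%). Among Top2b anchors the leading word stood at 254, or 3.65% (3.24 to 4.12%), a difference of 13.7 points (12 to 15.6). The word was picked from these sites after their values were seen, and so the difference is a description with no test.

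The excess was of similar size within strata of strength. It was 13.1 points (11.1 to 15) within strata of CTCF score and 13.2 points (11.2 to 15.2) within strata of Rad21 score, and members had the higher share on 19 of 19 autosomes. Within strata of GC content it was 11.7 points (9.89 to 13.6) on average, but it was not even across them. In the lowest GC decile the word was at 22.3% of members and 7.00% of Top2b anchors and in the fourth at 28.3 and 5.58%. In the ninth the shares were 1.06% (1 of 94 members) and 0.814%, and in the highest 0 of 158 members and 0 of 766 Top2b anchors held it. In the lowest Rad21 decile the word was at 16.5% of 552 members and 2.60% of 308 Top2b anchors, and in the seventh at 18.2% of 66 and 4.23% of 803. In the highest decile 0 of 8 members held it (interval up to 32.4%), against 1.28% of Top2b anchors. The 303 members had a median CTCF score of 1870 and a median Rad21 score of 430, close to the 1907 and 391.5 of the other members.

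Anchors with the word had no Top2b flag in 54.4% (50.2 to 58.5%) of 557 cases, anchors with any other word in 17.7% (16.9 to 18.5%) of 8134. Of the next 5 words by count among members, AGAAGGGGGC lacked it in 46.8% (37.0 to 56.8%) of 94. The other ones, AGCAGGGGGC, AGCAGAGGGC, ACCAGGGGGC and ACAAGAGGGC, lacked it in 15 to 23.3%. Outside intra-TAD anchors the same contrast was seen, at 14.2% of TAD anchors without Top2b and 2.38% of those with it, and at 18.5% and 2.88% of other cohesin- and CTCF-bound sites with a motif. The word was most common in the class that the authors call lone CTCF sites, among those with a motif, at 28.2% (27.2 to 29.2%) of 7543. Searched on both strands in 200 bp around the summit, the word was in 17.6% of members, 3.78% of Top2b anchors and 10.3% of all 52436 sites, and in flanking windows of the same length in 0.862, 0.446 and 0.582%.

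**Figure D4:**
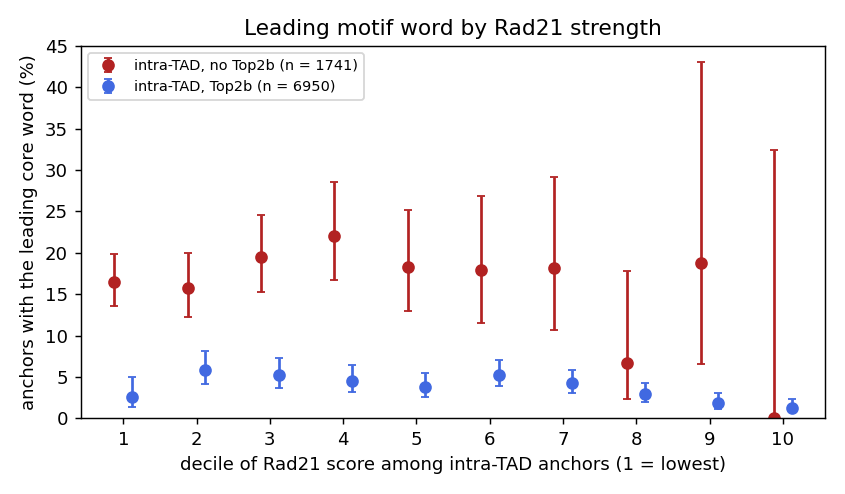
Percentage of anchors with the leading core word (vertical axis) in each decile of Rad21 score among intra-TAD anchors (horizontal axis, 1 = lowest), for members and Top2b anchors, with 95% Wilson intervals over sites. The members' share is the higher one in 9 of 10 deciles, 16.5% against 2.60% in the lowest, and 0 of 8 members hold the word in the highest.

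The bases around the word were also alike. From other cohesin and lone CTCF sites with the word (4284 sites, none of them an anchor) a common sequence was derived, ccatagAGGCCAGAAGAGGGCATCAgatcc over the match and the bases next to it. Its 33 best conserved positions outside the match were compared with each anchor. Members with the word matched a median of 57.6% of them, and other members 30.3%. At least 60% were matched by 143 of the 303 members with the word (47.2%, 41.6 to 52.8%), by 121 of the other 1438 members (8.41%, 7.09 to 9.96%). Top2b anchors with the word were also alike, with a median of 54.5% and at least 60% matched at 85 of 254 (33.5%, 27.9 to 39.5%), against 1.15% of Top2b anchors with other words. Of the 177 TAD anchors without Top2b that held the word, 48.0% matched at least 60%. Sequences of 14 bases just 5′ of the match occurred a median of 65 times in the genome at members with the word and 36 times at other members, and those just 3′ of it 52 and 35 times. At Top2b anchors with the word the counts were 45 and 37.5. Farther from the match they were 44.5 at members with the word and 38.5 at other members. Mouse SINE elements of the B2 family are known to carry CTCF motifs. Repeats are not marked in the assembly used, and whether these sites lie in such an element was not tested.

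The leading differences from Top2b anchors did not rest on these sites. Without all anchors that held the word, the probability that a member exceeded a Top2b anchor was 0.259 for CTCF score, 0.180 for Rad21 score and 0.383 for GC content, and the Stag1 difference was −9.66 points. Against TAD anchors without Top2b the Stag1 difference was 3.68 points without these sites, and the intergenic difference, which had not passed, turned to −0.831 points.

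Members lay farther from starts but were more often inside genes. The nearest protein-coding TSS was at a median of 15757 bp (quartiles 5136 and 39196) against 13043.5 bp for Top2b anchors (probability 0.539, 0.524 to 0.554, exact p = 1.45e-05, adjusted p = 1.98e-05), and the number of genes with a start within 100 kb had a median of 3 against 4 (0.450, 0.435 to 0.465, exact p = 1.64e-08, adjusted p = 2.73e-08). Neither difference passed the threshold within strata of CTCF score. Introns held 43.3% (41.0 to 45.6%) of members and 37.6% of Top2b anchors, coding exons 3.27% and UTR exons 4.37% of members. Intergenic sites were 49.1% and 53.8% (difference −4.70 points, −7.32 to −2.08), which narrowed to −1.27 points (−4.25 to 1.71) in joint strata.

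Within 1 kb of a start lay 144 members (8.27%, 7.07 to 9.66%), against 12% of Top2b anchors (difference −3.76 points, −5.20 to −2.18), which no longer passed at a fold of at least 10 (−1.80 points, −3.97 to 0.891). These promoter members had a median CTCF score of 2804, a Rad21 score of 515, 66.8% GC and a motif score of 15.2, and Stag1 was flagged at 75%. The 1597 members farther away had medians of 1852, 387, 46.5% and 17.7, and Stag1 at 90.7%. Rad21 fragments per CTCF fragment were 0.287 at promoter members and 0.345 at the others. Top2b anchors showed the same directions, except in Rad21 score. Their 836 promoter sites and 6114 farther sites had medians of 4730.5 and 3262 for CTCF score, 1124 and 1212.5 for Rad21 score, 61.5 and 50.5% GC, 15.7 and 18.4 for motif score and 0.346 and 0.474 for the ratio, with Stag1 at 95.6 and 99.3%.

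How often members were at promoters depended on CTCF strength. In the lowest CTCF decile 7.39% (5.41 to 10%) of members and 19% (15.3 to 23.3%) of Top2b anchors lay within 1 kb of a start. In the highest decile the order was the opposite, with 31 of 55 members (56.4%, 43.3 to 68.6%) and 37.9% (34.6 to 41.3%) of 815 Top2b anchors. A GC content of at least 61% was found at 43 of those 55 members (78.2%) and 372 of the 815 Top2b anchors (45.6%). Their median Rad21 score was 1381 and that of Top2b anchors in the same decile 2421. The change across deciles was noticed in the data and has no test of its own.

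**Figure D5:**
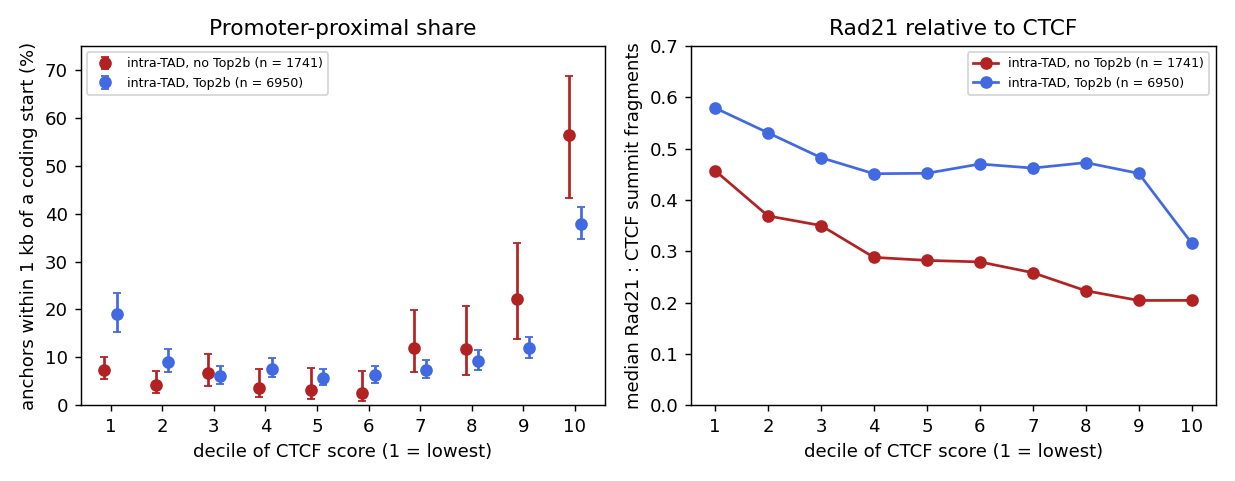
Left, percentage of anchors within 1 kb of a protein-coding start (vertical axis, 95% Wilson intervals over sites) in each decile of CTCF score among intra-TAD anchors (horizontal axis, 1 = lowest). Right, median ratio of Rad21 to CTCF fragments at the summits in the same deciles. Members lie below Top2b anchors on the left in the lowest decile (7.39% against 19%) and above them in the highest (56.4% against 37.9%), and below them on the right in every decile.

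Members near genes with a role in liver were taken from gene lists, within 25 kb of a start. The listed gene need not be the nearest one. Among hepatocyte transcription factor genes, 3 members and 12 Top2b anchors were found. The member 225 bp from Cebpb, an acute phase and metabolic regulator, had a CTCF score of 8053 and a Rad21 score of 585. A member 6150 bp from Onecut1 scored 2758 for CTCF.

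The growth hormone and STAT5 pathway had 4 members and 11 Top2b anchors (26.7% without Top2b, 10.9 to 52.0%). This interval includes the 20% over all anchors. The feedback inhibitor Socs2 had a member 263 bp from its start (CTCF score 709, Rad21 score 70, no Stag1 flag) and Socs1 had one at 337 bp (5699 and 515). Igf1, the secreted effector of growth hormone, had one at 3686 bp (3114 and 622), and the repressor gene Bcl6 one at 21365 bp (1640 and 463).

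Cytochrome P450 genes had 5 members and 2 Top2b anchors (71.4% without Top2b, 35.9 to 91.8%, of 7). Cyp1a2, an oxidase of caffeine and aromatic amines, had a member at 4639 bp with a Rad21 score of 241. Cyp2b10 had 2 in introns, 5689 and 6569 bp from its start, with Rad21 scores of 293 and 2048, of which the nearer one holds the leading word. Cyp8b1, which sets the makeup of bile acids, had one at 12477 bp (459), which was nearer to 1700048O20Rik, at 9353 bp. The list includes clusters of close paralogs and holds 7 anchors in all, beside 20% without Top2b over all anchors.

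Among plasma protein genes 4 members and 7 Top2b anchors were counted, with members in an intron of Afp, upstream of the fibrinogen gene Fgg (5444 and 22826 bp) and 24822 bp from Orm1. Urea cycle and gluconeogenesis genes had 2 members and 15 Top2b anchors, with a member 12661 bp from Tat (Rad21 score 2367). Nuclear receptor genes had 1 member, in an intron of Nr2f2 (Rad21 score 625), and 18 Top2b anchors. The coagulation and complement list had 0 members and 12 Top2b anchors (interval up to 24.2%), and the circadian clock list 0 and 7 (up to 35.4%).

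Apolipoprotein and lipid transport genes had 2 members, 13392 bp from Apoe and 16235 bp from Apom, and 11 Top2b anchors. The former is the Tomm40 exon site named above, and the latter lay 387 bp from the start of Ly6g5b. The list of CTCF, cohesin and topoisomerase genes had 1 member and 7 Top2b anchors. That member lay 161 bp inside Ctcf itself, with a CTCF score of 8281, a Rad21 score of 868 and 81.0% GC. Imprinted genes had 2 members, 3537 bp from Phlda2 (Rad21 score 1390) and 9048 bp from Igf2 (588). The latter was nearer to Ins2, at 3669 bp. Hox clusters had 2, 230 bp from Hoxc10 (429) and 4452 bp from Hoxb13 (477). For markers of other liver cells the count was 1, beside 9 Top2b anchors. It lay 5138 bp from Pdgfrb of stellate cells and nearer to Cdx1, at 3813 bp. The counts of all these lists are small and are given as description, beside 20% without Top2b over all anchors.

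Members had close neighbours. The next intra-TAD anchor was at a median of 15952 bp (quartiles 5813 and 52374) against 26214.5 bp for Top2b anchors (probability 0.435, 0.420 to 0.450, exact p = 2.01e-16, adjusted p = 5.03e-16), nearer on 19 of 19 autosomes. Within strata of Rad21 score the probability was 0.489 (0.472 to 0.506), and at a fold of at least 10 it was 0.512. That neighbour had its motif on the same strand at 69.8% (67.6 to 71.9%) of members and 54.7% (53.5 to 55.8%) of Top2b anchors. A neighbour on the same strand within 10 kb was present at 605 members, or 34.8% (32.5 to 37.0%), and at 22.8% of Top2b anchors.

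In such close tandem pairs the member was mostly the weaker site. The neighbour had the higher CTCF score at 66.8% (62.9 to 70.4%) of the 605 members and the higher Rad21 score at 69.8% (66.0 to 73.3%), while these shares were 38.5 and 36.6% of 1586 Top2b anchors, and it carried Top2b at 70.9% (67.2 to 74.4%) and 66.1%. Since members are weaker on the whole, these shares are a description and were not tested at matched strength.

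Neighbouring and facing anchors lacked Top2b at rates whose differences had intervals that include 0. The nearest intra-TAD anchor lacked Top2b at 25.3% (23.3 to 27.4%) of members and 23.4% of Top2b anchors, a difference of 1.86 points (−0.365 to 4.18). The nearest anchor that faced the site, that is, the next intra-TAD or TAD anchor of opposite motif strand in the direction the motif points, lacked it at 18.4% (16.7 to 20.3%) and 17.4% (difference 0.999 points, −0.975 to 3.08). These facing anchors were derived from strand and position, not from the authors' loop list, and lay at a median of 120162 bp from members and 102900 bp from Top2b anchors.

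Members followed one another without another intra-TAD anchor between them in 362 of 8959 consecutive pairs of intra-TAD anchors, 74 of which were convergent with a median spacing of 104248 bp. The tightest convergent pair, near Mrpl17 on chromosome 7, had summits 1759 bp apart and Rad21 scores of 104 and 236. The pair closest to the median spacing joined introns of Nubp1 and Ciita, the class II transactivator gene, over 104368 bp with Rad21 scores of 753 and 733.

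The longest runs of consecutive members held 5 sites, and there were 3 of them. The counts of pairs and runs are given as description. They were not compared with the numbers expected from the share of members, 1741 of the 8978 autosomal intra-TAD anchors. The run with the highest summed CTCF score lay on chromosome 4 among the major urinary protein genes, which encode pheromone carriers made in large amounts by male liver. Its 5 sites had CTCF scores of 2102, 3449, 2621, 3332 and 3173, Rad21 scores of 2101, 697, 397, 855 and 1111, and all had their motif on the minus strand. Their sequences were nearly alike, as is shown for the matches at chr4:61472398-61472426, chr4:61519383-61519411, chr4:61570640-61570668, chr4:61634457-61634485 and chr4:61659578-61659606 in that order. These genes are recent copies of each other, and although only uniquely mapped reads were used, how reads were shared among the copies was not tested.
Mup site 1: cagctTGGCCAGTAGAGGGCAATCgtgcc
Mup site 2: cagcgTGGCCAGTAGGGGGCAACCgtgcc
Mup site 3: aagctTGTCCAGTAGGGGGCAACCgtacc
Mup site 4: cagttTGGCCACTAGGGGGCAACCcggcc
Mup site 5: cagctTGGCCAGTAGAGGGCAATCgtgct

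The position of the Rad21 summit differed little, while CTCF peaks were narrower at members. The Rad21 summit lay downstream of the CTCF summit along the motif by a median of 18 bp at members (quartiles −1 and 39) and 20 bp at Top2b anchors. The distributions differed in the exact Kolmogorov-Smirnov test (p = 0.00654, adjusted p = 0.00701) without a clear direction (0.491, 0.475 to 0.506). CTCF peaks were 454 bp wide at members and 493 bp at Top2b anchors in the median (0.361, 0.345 to 0.377, exact p = 2.50e-78, adjusted p = 1.25e-77), and the difference was smaller within strata of CTCF score (0.448, 0.431 to 0.465).

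The share of anchors without Top2b ran across chromosomes from 16.4% (13.5 to 19.9%) of 517 on chromosome 1 to 23.3% (20.1 to 26.9%) of 583 on chromosome 5. The median Rad21 score of members was between 257.5 on chromosome 14 and 530 on chromosome 7.

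Compared with TAD anchors that also lack Top2b, members had the higher medians of CTCF score (1902 against 1331) and Rad21 score (400 against 243), which the authors' selection used and which are therefore no test. They were GC-richer (47.0 against 44.5%, probability 0.602, 0.582 to 0.623, exact p = 3.69e-16, adjusted p = 7.91e-16). They were nearer to a TSS (15757 against 21483 bp, 0.445, 0.424 to 0.466, exact p = 5.16e-07, adjusted p = 7.74e-07) and had more starts within 100 kb (3 against 2, 0.582, 0.562 to 0.602, exact p = 1.24e-12, adjusted p = 2.33e-12). Starts were also among the authors' filters for predicted loops, and the part of that filter was not tested. CTCF peaks were 454 and 444 bp wide (0.532, 0.511 to 0.553, exact p = 0.00256, adjusted p = 0.00296), which turned to 0.484 (0.462 to 0.506) in joint strata.

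Between these classes the Rad21 summit displacement did not pass the test (18 against 17 bp, 0.504, 0.483 to 0.525, exact p = 0.394, adjusted p = 0.394). Stag1 was flagged at 4.83 points more members than TAD anchors without Top2b (2.38 to 7.34) and Stag2 at 1.55 points more (0.0591 to 3.15), but within joint strata of strength the differences were −0.296 (−2.66 to 2.07) and −0.687 points (−2.22 to 0.846). Sites within 1 kb of a start were 2.43 points more frequent at members (0.548 to 4.24). This call was lost in joint strata (1.27 points, −0.590 to 3.14) and in strata of CTCF score (1.11), and the direction turned in strata of GC content (−0.369 points, −1.99 to 1.25). The share of intergenic sites differed by 0.854 points (−2.78 to 4.48).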

How the data were processed

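Livers of 8-week-old male CD-1 mice were profiled by ChIP-seq with 4 CTCF and 3 Rad21 libraries. For each factor the authors pooled the raw reads, aligned them to mm9 with Bowtie2 keeping unique positions, and ran MACS2 on the pool. The deposited score is 10 times the −log10 q-value, the deposited fold is a ratio of summit fragments to local background with a pseudocount of 1, and the deposited −log10 p-value follows a Poisson model. From fold and −log10 p the fragments at the summit were recovered, whole within 0.1 at 99.997% of peaks of both factors. These pooled lists give no total depth and no replicate values. Classes, motif scores and flags were deposited in an unheaded list whose column order was taken from the study's own listing.

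Genes and starts were those of GENCODE vM1. Shares carry Wilson intervals, differences of shares Newcombe intervals, measures an exact two-sided Kolmogorov-Smirnov test with the probability that a member exceeds a comparison site (DeLong interval), adjusted over 15 tests. Stratified probabilities weight strata by size and have a normal test, and stratified shares are Mantel-Haenszel differences. The motif matrix was learnt from 1000 strong TAD anchors. All intervals cover counting error over sites only. Analyses used Python 3.11.15 with SciPy 1.17.1 and NumPy 2.4.6 and were tested on simulated data. Named members were the 6 highest by each score, the 3 lowest by CTCF score, the 3 at each end of the Rad21 to CTCF ratio, the 3 with least overlap, up to 4 nearest to a start per gene list, and the tightest and the median convergent pair. The sites with the leading word, shown for the highest flank likeness, the longest run and the close tandem pairs were chosen after their values were seen. The members and all lists were chosen with earlier results of these data known. Alternatives were the overlap rule, a fold minimum of 10, strata, windows and gene sets. Some members that this rule names are not reported here.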

Additional observations from a re-analysis of the deposited data

Results flagged for a closer look

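On the X chromosome, which the comparisons do not use, 22 of 71 intra-TAD anchors with a Rad21 peak lacked the Top2b flag (31.0%), with a median CTCF score of 2046 and a median Rad21 score of 351. These 22 sites stand here because they lie outside the autosomes that the comparisons used.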

How the results depend on the processing

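Of 213 values recomputed for 25 results, 166 kept their direction and side of the threshold, 22 kept their direction but no longer passed, and 25 changed direction. The cause was not tested. The CTCF and Rad21 scores, GC content, peak width against Top2b anchors and the Stag1 share against Top2b anchors kept both under every alternative run. Against Top2b anchors, a fold minimum of 10 (549 members) gave probabilities of 0.498 for motif score, 0.471 for displacement and 0.512 for distance to the next anchor, and differences of −0.142 points for Stag2, −1.80 for the 1 kb share and −0.723 for intergenic sites. Strata of CTCF score gave 0.536 for motif score, 0.510 for distance to TSS, 0.484 for the number of starts and 0.0325 points for CpG. Strata of Rad21 score gave 0.564 for the fragment ratio, 0.530 for motif score, 0.529 for displacement, 0.489 for the next anchor and −1.25 points for intergenic sites. Strata of both scores, like those of GC content chosen after seeing the data, gave 0.541 for motif score, 0.517 for displacement and for distance to TSS, 0.483 for starts, −1.27 points for intergenic sites and −1.32 for CpG, and strata of GC content 0.485 for displacement and 0.514 for distance to TSS. Against TAD anchors, the fold minimum (245 TAD anchors) gave 0.491 for displacement, 0.511 for width, and −1.46 points for Stag1, −0.182 for Stag2, 3.12 for the 1 kb share and −3.77 for intergenic sites. Strata of CTCF score gave 0.479 for width, 0.435 points for Stag2 and 1.11 for the 1 kb share. Strata of Rad21 score gave 0.494 for displacement, 0.498 for width, and −0.940 points for Stag1, −0.692 for Stag2 and −0.467 for intergenic sites. Strata of both gave 0.497 and 0.484, and −0.296 points for Stag1, −0.687 for Stag2, 1.27 for the 1 kb share and −0.115 for intergenic sites. Strata of GC content gave −0.369 points for the 1 kb share, a reciprocal overlap of 50% gave 1.36 for Stag2 and −0.185 for intergenic sites, and sites over 1 kb from a start 1.11 for Stag2. No paired analysis was possible because the lists are pooled and hold no replicate columns, and for the same reason no library could be left out. The share of repeat sequence was not run, since repeats are not marked in the assembly. Weak Rad21 peaks limit the depth, as the weakest member rested on 15 fragments at its summit.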
